A study of Sus scrofa with 9 samples.

Results

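An array of 12544 probes was made to find where microRNAs (miRNAs) of the pig, Sus scrofa, begin, and 117 of these stood side by side in 25 runs of 4 to 6 bright neighbours. These probes were selected on their measured intensity. A probe counted as bright where it exceeded, on the log2 scale, a cut set 3 scaled median absolute deviations (MAD) above the scan median in all 3 scans at medium PMT, the photomultiplier setting of the scanner. Bright probes with consecutive numeric IDs were joined into runs. The 117 probes made up 26.6% of the 440 bright probes and 0.933% of all probes, and their 25 runs were among 143 runs of any length. There were 13 runs of 4 probes, 7 of 5 and 5 of 6. In what follows the runs are numbered in the order of their IDs, and left means the side of the lower IDs.

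The study pooled small RNA of 20 tissues, among them heart, vessels, liver, muscle, skin and white blood cells, in equal amounts from 3 pigs aged 12 months and kept on a normal diet, whose breed the labels write as vietnamite. The pool was given a poly(A) tail, copied into cDNA and applied to the array in 3 hybridizations, each read at low, medium and high PMT for 9 scans in all. There was no treated or control group, so the groups are the PMT settings, with 3 scans in each. All scans came from 1 RNA pool and the labels of all 9 end in the same number, so that the hybridizations were technical replicates that may share a single array, which was stripped between uses. The spread given below is that between hybridizations and holds no difference between animals or tissues.

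MiRNAs are cut from hairpin precursors. The bases near the 5′ end of the mature strand, called the seed, pair with messenger RNAs, so a shift of the 5′ end by a single base changes which messengers are recognised. In the RAKE assay (RNA-primed array-based Klenow extension) a strand bound to a probe serves Klenow polymerase as a primer, and is stained, only where the 3′ end of that strand is fully paired. Here that strand was the cDNA, whose 3′ end copies the 5′ end of the miRNA, and the probes were laid out as tiling paths of 16 probes, each shifted by a single base. No sequence, precursor or place in a tiling path was at hand for the IDs, so no probe is named and no probe sequence is shown. Neighbouring IDs could not be checked to be neighbours in a path. A step between 2 IDs can also hold a difference in how well the probe sequences bind, which was not tested.

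The members ranged from just over the cut to the top of the scale. The cut lay at an intensity of 11897 in hybridization 1, 12819 in hybridization 2 and 10185 in hybridization 3, while the medians of all probes in these scans lay between 605 and 1295. The median member read 25044, 29065 and 32376 in hybridizations 1, 2 and 3. In the scan where each was lowest against its cut, the 3 members nearest to it were 0.0069, 0.010 and 0.018 (log2) over it. The 3 flanking probes nearest to it missed it by 0.081, 0.13 and 0.22, and 32 of the 117 members lay within 0.5 of the cut in at least 1 scan. Of the 46 probes that flanked a run, 4 were bright in 2 of the 3 scans. The 16-bit scale has a ceiling, which 29 members reached in at least 1 medium PMT scan and 7 in all 3. The 8 runs that held such a probe were therefore read, with their flanks, from the low PMT scans, and the other 17 from medium PMT. Runs 19, 20, 21 and 22 still had probes at the ceiling at low PMT, so that their levels are lower bounds and their top probe is uncertain. An edge that ends on such a probe is a lower bound too, while the left edge of run 19 and the right edge of run 21 involved none. All 5 probes of runs 20 and 22 were at the ceiling in hybridization 3, so their ranges may lie on either side of the values read.

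Typical runs were flat on top and fell by a large step on at least 1 side. The median of the range among the probes of a run was 0.69 (log2), or 1.61-fold, and it was under 1 in 19 of 25 runs. Relative to the top of its run, the first probe had a median of 77.4%, the second 83.9%, the third 85.8% and the next 90.4%. The probe before the first had a median of 2.81% and the probe after the last 5.97%. Beyond the right flank the medians were higher again, with 19.9% at the second and 13.8% at the third ID after the run. The rule put every flank under the cut in at least 1 scan and every member over it in all 3, so these edges draw on the values that chose the members and carry no test. At medium PMT the members lie between the cut and the ceiling, which also bounds the range among them. The flat tops are therefore a description too.

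Edges ran from 1.12-fold to 98.7-fold. The left edge, from the flank to the first probe, had a median of 4.46 (log2), or 22.0-fold, and a range of 0.17 to 6.63. The right edge had a median of 3.09, or 8.53-fold, and a range of 0.16 to 6.53. The median left edge was 4.74, 4.43 and 3.72 in hybridizations 1, 2 and 3 (SD 0.52, n = 3), and the median right edge was 2.93, 3.09 and 3.16 (SD 0.12, n = 3). At medium PMT the median of all probes was 1.10 (log2) higher in hybridization 3 than in hybridization 1. The part of the level of the flanks in these edges was not tested. The steeper side was the left in 13 runs and the right in 11 in each of the 3 hybridizations, and it changed between them in run 13. Both edges were over 3 in 7 runs, a single edge in 13 and neither in 5. With a bright level of 2.5 scaled MAD, which gave 41 runs, the medians were 2.66 on the left and 3.61 on the right, so the order of the sides depended on that level. Without the 8 runs at the ceiling the right median was 2.25.

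Probes at 50% or more of the top of a run formed a stretch with a median width of 5 IDs. The stretch was as long as the run in 14 runs, shorter in 6 and longer in 5. It was shortest in run 13, with 2 IDs, and longest in run 2, with 13 IDs, where it reached back over run 1. The top probe was the first of its run in 8 runs, the last in 7 and an inner probe in 10. Among the 21 runs below the ceiling as read, the same probe was the top in all 3 hybridizations in 13.

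Local maxima were common and shallow. A local peak was a probe higher than the neighbour on either side, flanks included, and the 25 runs held 38 of them, 1 in 12 runs and 2 in 13. Of these, 28 were local peaks in each of the 3 hybridizations, and 8 runs had 2 such shared peaks. The height of the lower peak over the lowest probe between the peaks reached 0.25 (log2) in only 2 runs, 11 and 14. The number of such runs was 8 at a minimum of 0.1 and 0 at a minimum of 0.5.

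Run 14 held the deepest dip between 2 peaks. Its 4 probes, IDs 5229 to 5232, read 28839.5, 21892, 16095 and 22803 in hybridization 1 at medium PMT, between flanks of 289 and 9363.5. Hybridization 2 gave 35884, 26766, 20015 and 31067, between flanks of 473 and 12270.5. Hybridization 3 gave 50138, 35317, 27261 and 34254, between flanks of 648 and 15396.5. The first probe was the highest and the third the lowest in each of the 3 hybridizations. The rise from the third to the last probe was 0.50, 0.63 and 0.33 (log2), a mean of 0.49 ± 0.15 (SD, n = 3).

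Run 11 had the same form and the steepest edge as read, though the right edge of run 22, at 6.53, is a lower bound and could be steeper. Its 4 probes, IDs 2527 to 2530, read 24478, 16850, 12001 and 15901 in hybridization 1 at low PMT, between flanks of 231 and 2695.5. Hybridization 2 gave 43272.5, 33152, 21430 and 29617, between flanks of 366 and 4304. Hybridization 3 gave 43958, 37939, 28068 and 35464, between flanks of 572 and 7450.5. As in run 14, the first probe was the top and the third the lowest of the run throughout. The dip was 0.40 ± 0.065 deep (log2, SD, n = 3), and the left edge of 6.63 ± 0.32 was a 98.7-fold step between neighbouring IDs. At medium PMT the left flank read 369, 539 and 787 in hybridizations 1, 2 and 3. The medians of all probes in those scans lay between 605 and 1295, so the step starts from the level of dim probes. To the right of run 11, a single ID, over the cut in hybridization 3 only, parted it from a run of 12 bright probes.

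Among the runs of 6, run 5 rose slowly from probe to probe within the run and dropped at its last probe. IDs 1139 to 1144 read 26448.5, 35527, 41125, 47202, 44011 and 18006 in hybridization 1 at medium PMT, between flanks of 210 and 430. Hybridization 2 gave 30428.5, 35722.5, 42217.5, 49241.5, 53024.5 and 23280, between flanks of 328 and 686.5. Hybridization 3 gave 33104, 40368, 45094, 50372, 51554.5 and 24369.5, between flanks of 503 and 1087. The levels rose over the first 4 probes in each hybridization and the last probe lay lowest. The edges of this run were 6.52 ± 0.47 on the left and 4.99 ± 0.46 on the right (log2, SD, n = 3). On the right, however, only a single ID that was not bright followed. The next, ID 1146, was bright again and read 13991, 18068.5 and 19859.5 in hybridizations 1, 2 and 3 at medium PMT.

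Run 6, by contrast, was the flattest of the 25 as read. IDs 1171 to 1176 read 22984, 21861, 19694, 20690, 20763 and 21716 in hybridization 1 at medium PMT, between flanks of 4953 and 16099. Hybridization 2 gave 16901, 15830.5, 14890, 14939, 15913 and 16066, between flanks of 5538.5 and 8789. Hybridization 3 gave 14699, 13536, 12303, 12877, 13559 and 14364, between flanks of 7098 and 9042. The third probe was the lowest and the first the highest in all 3, over a range of means of only 0.22 (log2), or 1.17-fold. Its edges were shallow, 1.62 ± 0.58 on the left and 0.66 ± 0.22 on the right.

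Run 24 had the shallowest edge. IDs 12098 to 12103 read 17903, 18152, 23059, 22904, 19683 and 14025 in hybridization 1 at medium PMT, between flanks of 298 and 11251. Hybridization 2 gave 17107.5, 17486, 21946, 22371, 21285 and 16151, between flanks of 517.5 and 15406. Hybridization 3 gave 24708, 27736.5, 32218, 33907, 32000 and 25152.5, between flanks of 716.5 and 23332. It formed a low dome with its top at an inner probe, ID 12100 in hybridization 1 and ID 12101 in the others. The left edge was 5.35 ± 0.48 (log2, SD, n = 3), while the right edge, 0.16 ± 0.13, was little more than its own spread, and the right flank was under the cut only in hybridization 1. The left edge of run 7 was as shallow, at 0.17 ± 0.079.

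Runs 15 and 19 were the bright runs of 6 and had to be read from low PMT. In run 15, IDs 5234 to 5239 read 21131, 29529, 35792, 31831, 38072 and 36697 in hybridization 1, between flanks of 4946 and 543. Hybridization 2 gave 28977, 42759, 45267.5, 40589, 39840 and 45961, between flanks of 7191 and 713. Hybridization 3 gave 40868, 57409, 64335, 62159, 61363 and 64375.5, between flanks of 10068 and 839. The first probe was the lowest throughout, the other 5 formed a plateau, and the right edge was 6.12 ± 0.13 (log2, SD, n = 3) against 2.04 ± 0.046 on the left. In run 19, IDs 10630 to 10635 read 24411.5, 36460, 39307, 43774.5, 58388 and 59976.5 in hybridization 1, between flanks of 1027 and 1022. Hybridization 2 gave 43474, 61066, 60855.5 and 65107 before 2 probes at the ceiling, between flanks of 1917 and 2041.5. Hybridization 3 gave 47181.5, 61895 and 62858.5 before 3 probes at the ceiling, between flanks of 2390 and 2499.5. Where values were below the ceiling, the level was lowest at the first probe, and it rose toward the last in hybridization 1.

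The widest and the narrowest ranges among the probes came from runs 13, 8, 6 and 2. Run 13, IDs 4165 to 4169, read 16004, 44289, 30552, 20660 and 18344 in hybridization 1 at medium PMT, between flanks of 599.5 and 412.5. Hybridization 2 gave 16817.5, 45149, 26847, 16292.5 and 15068.5, between flanks of 698 and 852.5. Hybridization 3 gave 12522, 41240.5, 25980, 16626.5 and 14753, between flanks of 950 and 1409.5. The second probe stood out in every hybridization over falling levels to its right, and the range of 1.54 (log2), or 2.90-fold, was the largest of the 25 as read. Run 8, IDs 1546 to 1549, read 12919.5, 25499.5, 28149.5 and 18143.5 in hybridization 1 at low PMT, between flanks of 2451 and 292.5. Hybridization 2 gave 15961.5, 29462, 45444.5 and 41760, between flanks of 4869 and 445.5. Hybridization 3 gave 11449.5, 21407, 30068 and 26959, between flanks of 3876 and 620. The third probe was the top and the first the lowest throughout, over a range of 1.34 (log2).

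Run 2, IDs 173 to 176, read 19325, 21693.5, 20048.5 and 20939 in hybridization 1 at medium PMT, between flanks of 15604 and 7200.5. Hybridization 2 gave 13665.5, 15888.5, 14398 and 17532.5, between flanks of 10771 and 3686.5. Hybridization 3 gave 10256.5, 11391.5, 10312 and 12583, between flanks of 9067 and 9286.5. All 4 probes were highest in hybridization 1 and lowest in hybridization 3, over a range among the probes of only 0.26 (log2). Its left edge was 0.28 ± 0.087 and its right edge 1.41 ± 0.91 (log2, SD, n = 3).

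Steps between bright neighbours were set against all pairs of neighbouring IDs at medium PMT with limma. They come from the same scans as the rule, which bounds their size by putting both probes over the cut, so the counts are a description. Of the 92 inner steps, 26 had a probe at the ceiling and were left out, and 33 of the other 66 (50.0%) passed an adjusted p of 0.05, 19 upward and 14 downward. Over all 12310 pairs tested, 53.2% passed, and nothing is read from the difference. Among the 353 pairs with a bright probe, tested alone, 77.9% passed against 56.1% of inner steps. These pairs include steps from a bright probe to one that was not, whose direction the rule sets in at least 1 scan. Nothing is read from this difference either. Inner steps were somewhat smaller and more stable than steps at large, with a median size of 0.19 against 0.28 (log2) and a median SD over hybridizations of 0.068 against 0.12, a description with no test. Only 353 of the 12310 pairs held a bright probe. The contrast thus sets bright probes against mostly dim ones, with no match for intensity. Leaving out hybridization 2 lowered the inner calls to 11 of 69 and leaving out hybridization 3 to 21 of 71, against 28 of 66 without hybridization 1. The shares over all pairs fell with them, to 22.2% and 35.9%, against 51.8%.

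Among the runs given in full, the inner steps are listed as a description with no test, since runs 11, 13 and 14 were picked for a large range or a dip in these same scans. From the first to the second probe of run 13, the steps were 1.47, 1.42 and 1.72 (log2) in hybridizations 1, 2 and 3. From the fifth to the last probe of run 5 they were -1.29, -1.19 and -1.08. In run 14, the steps down to the third probe were -0.44, -0.42 and -0.37. Each of these steps had the same sign and a similar size in the 3 hybridizations. In run 6, the largest of the 5 inner steps in any hybridization was -0.15, in hybridization 1.

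Since low PMT stood in for medium PMT in 8 runs, the same steps were compared between the settings. The comparison reached those 8 runs only in part. The 26 inner steps with a probe at the ceiling all lay in them and were left out. This removed every inner step of runs 15, 19, 20, 21 and 22, so for these the settings could not be compared. With the hybridization as a block in limma, which pairs its scans, 0 of the 66 inner steps below the ceiling differed between medium and low PMT. Of all 12310 pairs 0.236% passed in that fit. The main fit held no block, so the spread between hybridizations entered its error and its counts say little about the settings. In it 0 inner steps differed, with 0 at an unadjusted p under 0.05, and 0% of all pairs passed. The median absolute difference of an inner step between the settings was 0.014 (log2), smaller than the SD over hybridizations.

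The levels of the members varied more between hybridizations than did the differences among the probes of a run. The SD of a member over the 3 hybridizations had a median of 0.35 (log2), and of 0.069 once the mean of its run was subtracted in each scan. Among the 21 runs below the ceiling as read, 8 were brightest in hybridization 1, 4 in hybridization 2 and 9 in hybridization 3. The mean of a run in hybridization 3 minus that in hybridization 1 went from -0.88 in run 2 to 1.78 in run 16, which was 3.42-fold brighter in hybridization 3. In 18 of the 21 runs all probes differed in the same direction.

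These differences varied along the order of the IDs, a pattern looked at after the values were seen. The list was parted into 4 equal blocks of IDs. In the first block, IDs 1 to 3136, 8 of 11 runs were lower in hybridization 3 than in hybridization 1, with a median difference of -0.47 (log2). In the other 3 blocks 1 of 10 was lower, run 13, and the median difference was 0.67. Bright probes outside these runs were read at medium PMT and kept only where below the ceiling there, whereas some of the runs were read at low PMT. This left 74, 32, 23 and 46 such probes in the 4 blocks. They had a median difference of -0.54 in the first block and of 0.78, 0.81 and 0.28 in the next 3. Probes that were not bright had medians of 1.02, 0.85, 1.07 and 1.18 in the 4 blocks, and 11.4%, 7.06%, 1.71% and 2.06% of them were lower in hybridization 3. Once every scan was centred on its own median, 20 of the 21 runs were lower in hybridization 3, so the sign of a single run depends on the scaling. The gap between the medians of the first block and the rest was 1.13 (log2), and 1.08 when all runs were read at low PMT. Where on the array an ID lies is not stated in the sources used here, and the part of position was not tested.

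Few runs stood alone. Another bright probe lay within 15 IDs of 22 of the 25 runs, and 12 runs were parted from other bright probes by a single dim ID. Dim here means not bright, and so under the cut in at least 1 scan. There were 9 such gaps of 1 ID. Their depth, from the mean of the bright neighbours to the dim probe, had a median of 3.27 (log2) and went from 1.63, a 3.09-fold drop, between runs 14 and 15 to 5.05, a 33.0-fold drop, between runs 12 and 13. At the latter, ID 4164 read 599.5, 698 and 950 in hybridizations 1, 2 and 3 at medium PMT, while both neighbours were bright each time. The former, ID 5233, read 9363.5, 12270.5 and 15396.5, and so was over the cut in hybridization 3 only. The same held for ID 10901 beside run 20, which read 34077 in hybridization 3, and for ID 2531 beside run 11, which read 10847.

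In 7 cases the nearest bright run was itself a run of 4 to 6, which joined 14 runs into pairs over spans of 10 to 15 IDs. The right run began 5 IDs after the start of the left run in 4 pairs, 9 IDs after in 2 and 10 IDs after in 1. The outer edges of the pairs were 4.61 to 6.56 (log2) on the left and 1.41 to 6.53 on the right. In runs 1 and 2, and in runs 24 and 25, the dim IDs between the runs kept much of the signal. Inner edges there were 0.85 and 0.28 in the former pair and 0.16 and 0.35 in the latter.

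Some runs far apart in ID had profiles of similar form. Each run was compared with each other over 16 IDs, from 3 IDs before its first probe, by Pearson's r of the mean log2 intensity at medium PMT, as a description over IDs of the same scans. Over the 300 pairs of runs the median r was 0.37, with quartiles of 0.046 and 0.62. The pairs most alike were runs 2 and 25 (r = 0.998) and runs 1 and 24 (r = 0.991), then runs 14 and 18 (0.962), 12 and 21 (0.951) and 15 and 19 (0.947). Within single hybridizations r was 0.994 to 0.997 for runs 2 and 25 and 0.980 to 0.995 for runs 1 and 24. At low PMT, where fewer probes were at the ceiling, r was 0.965, 0.950 and 0.953 for the last 3. The largest difference at an ID at medium PMT was 0.70 (log2) for runs 2 and 25 and 0.62 for runs 1 and 24. It was 2.15, 2.255 and 2.15 for the last 3 pairs, which were thus alike in form but not in level at every ID. The windows of neighbouring runs overlap in part, so these pairs are not separate from each other.

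Some joined pairs were also alike over their whole span. Over 20 IDs, runs 1 and 2 against runs 24 and 25 gave r = 0.995, and in both the right run began 9 IDs after the left. Runs 14 and 15 against runs 18 and 19 gave r = 0.966, and runs 12 and 13 against runs 21 and 22 gave 0.863, each with a distance of 5 IDs. The levels in these 2 comparisons differed by up to 2.15 and 3.55 (log2) at an ID. The median over the 21 comparisons of joined pairs was 0.636 and the lowest was -0.040, for runs 3 and 4 against runs 12 and 13. Runs 1 and 2 differed from runs 24 and 25 by a median of 0.31 (log2) per ID and by at most 0.62. At the first probe, ID 164 read 32765.5, 26574.5 and 20846 in hybridizations 1, 2 and 3, and ID 12098 read 17903, 17107.5 and 24708. At the last probe of the right run, ID 176 read 20939, 17532.5 and 12583, and ID 12110 read 17020, 18729 and 29333.5. The former pair was thus dimmer and the latter brighter in hybridization 3 than in hybridization 1, while their shapes stayed alike. Whether such pairs hold related probe sequences was not tested, since no sequences were at hand.

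Set beside bright runs of other lengths, those of 4 to 6 were intermediate in median left edge, median range and number of runs with several peaks. A single probe has no range and no second peak, so part of this order follows from length. The median left edge was 2.49 (log2) for the 56 single bright probes, 2.66 for the 45 runs of 2 or 3, 4.46 for the 25 runs of 4 to 6 and 5.83 for the 17 longer runs. Its quartiles overlapped, at 0.87 and 4.76 for runs of 2 or 3, 1.89 and 5.49 for those of 4 to 6, and 4.19 and 7.02 for longer runs. The median right edge was 2.57, 4.11, 3.09 and 5.29 in the same order, and so did not climb with length. Several peaks by the prominence of 0.25 were found in 1 run of 2 or 3, in 2 of the 25 runs of 4 to 6 and in 13 of the 17 longer runs, although the median range among probes was 0.69 and 0.75 in the last 2 classes. The share of runs with a probe at the ceiling at medium PMT was 17.9%, 40.0%, 32.0% and 76.5%. Length and level come from the same scans and a longer run has more room for peaks, so these values are a description and carry no test.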

How the data were processed

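The authors deposited, for each probe, the raw Cy3 intensity on a linear scale, read from 16-bit VersArray scanner images with the CombiMatrix imager software. Any background subtraction or scaling between scans is not given in the sources used, and none was applied. All columns were used (0 left unused). Groups were taken from the sample labels. The members, the lists and the comparisons were chosen with earlier results of these data known.

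Bright probes, runs, edges, widths and local peaks were computed on log2 intensity (Python 3.11.15, numpy 2.4.6, pandas 2.3.3), per hybridization and for the mean of 3. A run with a probe at the ceiling of the scale at medium PMT was read wholly from low PMT. Inner steps were tested in R 4.3.3 by limma 3.58.1 (two-sided, eBayes after lmFit) on the log2 difference between neighbouring IDs within a scan, with Benjamini-Hochberg adjustment over all 12310 pairs and a threshold of 0.05. With 3 hybridizations of 1 pool, p-values measure technical spread alone, and their number limits the precision. The scripts were tested on simulated data.

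Values are given in full for runs with several peaks (prominence of at least 0.25), runs of 6 probes, the 2 runs with the largest and the 2 with the smallest range, and the runs with the steepest and the shallowest edge. Other runs named were singled out after their values were seen.

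Scans that share a replicate number were treated as 1 hybridization read at several settings. Residuals of the log2 levels, with each scan's median and each probe's mean over the scans of a setting subtracted, were correlated between settings. They gave 0.947 to 0.969 between the medium and low PMT scans of a number and -0.794 to 0.0555 across numbers. Subtracting that mean by itself pushes the values across numbers toward negative ones. A fit with this replicate block was run beside the main comparison of settings. Alternatives covered the bright level, the setting, the background (minimum of each scan subtracted, or normexp with an offset of 50), quantile normalization, a filter on dim pairs, the variance trend, the ceiling, the prominence and leaving out each hybridization.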

Additional observations from a re-analysis of the deposited data

How the results depend on the processing

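Membership rests on a cut that 32 of 117 members passed by under 0.5 (log2) in some scan, and 4 runs had probes at the ceiling even at low PMT, which leaves their levels as lower bounds. At 2.5 scaled MAD there were 41 runs, with a median left edge of 2.66, a right edge of 3.61, a width of 4 IDs, a range of 0.79 and 6 runs with several peaks. At 3.5 scaled MAD there were 14 runs, a right edge of 4.18 and 1 run with several peaks. Read at high PMT, where more probes were at the ceiling, the left edge was 3.88, the right edge 2.75, the range 0.40, the runs with several peaks 1 and the inner steps called 17 of 41 (41.5%, against 54.1% of all pairs). Without the runs at the ceiling, 17 runs had a right edge of 2.25 and 1 had several peaks. The number of runs with several peaks was 8 at a prominence of 0.1, 0 at 0.5, and 10 where any dip above 0 present in each hybridization counted. Subtracting the minimum of each scan, normexp and reading all runs at low PMT moved none of the shape measures beyond the spread between hybridizations.

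Leaving out a hybridization gave a left edge of 4.28 to 4.66, a right edge of 3.04 to 3.17, a width of 5 to 5 IDs, a range of 0.65 to 0.76 and 2 to 2 runs with several peaks. It gave 11 (without hybridization 2) to 28 inner steps called at medium PMT and 2729 (without hybridization 2) to 6381 over all pairs. It gave 0 to 0 for the comparison of medium with low PMT. Restricted to pairs with a bright probe, 275 of 353 pairs were called (77.9%), and 37 of 66 inner steps (56.1%). Under the replicate block, 29 of 12310 pairs differed between medium and low PMT, against 0 without it, and none of them was inside a run. A pair of further fits, chosen after seeing the data, joined the block with the minimum subtracted and with normexp, and called 0 pairs each. Also chosen after seeing the data, the count of runs lower in hybridization 3 than in hybridization 1 was checked under 4 settings. It was 9 of 21 as read, 6 to 9 at low PMT or with a background subtracted, and 20 with every scan centred on its own median. The cause of these differences was not tested.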
